A study of Mus musculus with 35 samples.

Results

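The Fgf ligands of embryonic signalling centres were followed across 6 tissues of the mouse embryo. The 10 members were Fgf3, Fgf4, Fgf7, Fgf8, Fgf9, Fgf10, Fgf15, Fgf17, Fgf18 and Fgf20. They were taken by gene symbol from the 30723 gene symbols in the files, with no cut on a measured value. Earlier results of these data were known when the members were chosen. For each gene the values of its transcripts were summed. Values are FPKM, fragment numbers scaled for transcript length and for sequencing depth, so that levels can be set side by side between genes. Of the 10 members, 6 had a tissue mean of 1 FPKM or more and so entered the test across genes (Fgf8, Fgf9, Fgf10, Fgf15, Fgf17 and Fgf18). The other 4 (Fgf3, Fgf4, Fgf7 and Fgf20) did not, and are given by their levels and by fits that keep low values.

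All 35 libraries came from untreated wild-type CD1 embryos at embryonic day 11.5, and the groups were defined by tissue. Sequencing runs were not spread evenly over the tissues. Replicate 4 of MNP, vB and limb shared a run, and replicate 4 of FNP and dB was in another. The run that held replicate 2 of the other tissues held no limb library. The facial tissues were the frontonasal prominence (FNP, 6 libraries), the mandibular prominence (MNP, 6) and the maxillary prominence (MXP, 5, with no replicate 4). The neural tissues were dB and vB with 6 libraries each, which the labels call dorsal and ventral neural tube and the study's methods describe as dorsal and ventral brain from the forebrain and midbrain. The limb had 6 libraries. Each library pooled tissue from several embryos, and each tissue was dissected whole. A signalling centre is a small part of such a tissue, so fewer cells of a kind and less RNA per cell cannot be told apart in these values.

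Fgf ligands are secreted proteins that bind receptor tyrosine kinases together with heparan sulphate and signal through the MAP kinase pathway to neighbouring cells. In the limb bud, ligands from the apical ectodermal ridge (Fgf8, Fgf4, Fgf9 and Fgf17) maintain the mesenchyme beneath, which in turn sends Fgf10 back to the ridge. Fgf8 is also made around the nasal pits, in oral ectoderm, at the isthmus between midbrain and hindbrain and at the rostral midline of the forebrain, where Fgf15, Fgf17 and Fgf18 are made as well.

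The Fgf8 gene lies on chromosome 19 from 45736798 to 45742884 (mm10), on the minus strand, and the files list 4 transcripts of it, of 1007, 1040, 1127 and 1199 bases. By GENCODE vM21, on the same assembly, these lengths correspond to a base form, known as Fgf8a, and to forms with added coding segments. A 33-base segment (chr19:45741647-45741679) gives the form known as Fgf8b, which binds receptors more strongly than Fgf8a. The 1127-base form has this segment and an 87-base cassette exon (chr19:45741911-45741997), and the 1199-base form has a 192-base extension of an upstream exon (chr19:45742324-45742515) without the 33 bases. All 3 segments lie within the coding sequence and have lengths divisible by 3. The 33-base segment and the 87-base exon are shown 5′ to 3′ on the gene's strand, because the estimates by form rest on such segments. They are in capitals, with 20 flanking transcript bases on either side in lower case. The flanks are from a transcript that holds both, so the bases before the 33-base segment are the end of the 87-base exon. In the 1040-base form, which lacks that exon, other bases precede the segment.
33-base segment: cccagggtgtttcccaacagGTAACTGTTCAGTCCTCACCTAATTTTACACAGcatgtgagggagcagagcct
87-base exon: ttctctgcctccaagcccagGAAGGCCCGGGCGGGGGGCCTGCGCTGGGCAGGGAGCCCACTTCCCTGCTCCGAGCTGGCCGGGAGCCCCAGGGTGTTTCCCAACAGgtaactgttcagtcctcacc

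The neural and limb libraries carried markers of their labels. The mean of log2(FPKM + 1) over 7 neural progenitor genes was 5.12 to 6.64 in the neural libraries, 1.86 to 4.50 in FNP and no higher than 2.52 in the others. Over 11 genes of limb mesenchyme it was 3.84 to 5.05 in the limb and no higher than 2.71 elsewhere. Of these, Hoxd13 averaged 168 FPKM in the limb and no more than 0.0426 FPKM in any other tissue. Hand2 and Pitx1 of that list were not particular to limb, at 87.1 and 52.0 FPKM there and 94.2 and 120 FPKM in MNP. Several libraries stood apart. FNP replicates 4 and 5 had neural progenitor means of 4.50 and 4.12, against 1.86 to 2.52 in the other FNP libraries. In vB the mean over 10 mesenchyme genes was 3.86, 3.82 and 4.73 in replicates 1, 4 and 5 and 0.72 to 2.20 in the other 3. Over 8 hypothalamic genes it was 1.29 in vB replicate 4, against 2.57 to 3.42 in the other vB libraries. Over 10 isthmic genes it was 2.31 and 2.59 in vB replicates 4 and 5, against 0.98 to 1.57 in the others. In the 6 replicate 1 libraries, the summed FPKM came to 19.1% to 39.2% from transcripts shorter than 200 bases, against 0.653% to 10.3% in the other libraries. No read counts were at hand, and the median coverage per FPKM of a library lay between 2.70 and 5.51, so that levels well under 1 FPKM rest on few reads.

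Fgf8 and Fgf15 dominated the Fgf output of these tissues. The summed FPKM of the 10 members was 53.7 ± 12.1 (SD, n = 6) in limb, 46.4 ± 23.4 (n = 6) in FNP, 45.1 ± 9.39 (n = 6) in vB, 42.8 ± 8.34 (n = 6) in dB, 23.0 ± 8.49 (n = 5) in MXP and 19.4 ± 3.58 (n = 6) in MNP. Fgf8 held 62.7% ± 15.8 of that sum in limb and 51.3% ± 9.58 in FNP, and it was the highest member in all 6 libraries of each. It also led in 5 of 6 MNP and 4 of 5 MXP libraries, with Fgf10 ahead in the remaining library of each. Fgf15 was the highest member in 6 of 6 libraries of dB and 6 of 6 of vB, at 55.7% ± 8.78 and 62.8% ± 12.4 of the sum. After Fgf15, the neural sum was made up mainly of Fgf17 (23.3% ± 5.83 in dB and 16.6% ± 7.93 in vB) and Fgf8 (15.6% ± 2.79 and 11.7% ± 5.22). The secondary ligands of the non-neural tissues differed in kind: Fgf17 in FNP (22.1% ± 3.16), Fgf10 in MNP (22.4% ± 5.86) and MXP (28.8% ± 14.1), and Fgf10 (15.2% ± 4.64) with Fgf18 (14.7% ± 10.6) in limb.

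**Figure D1:**
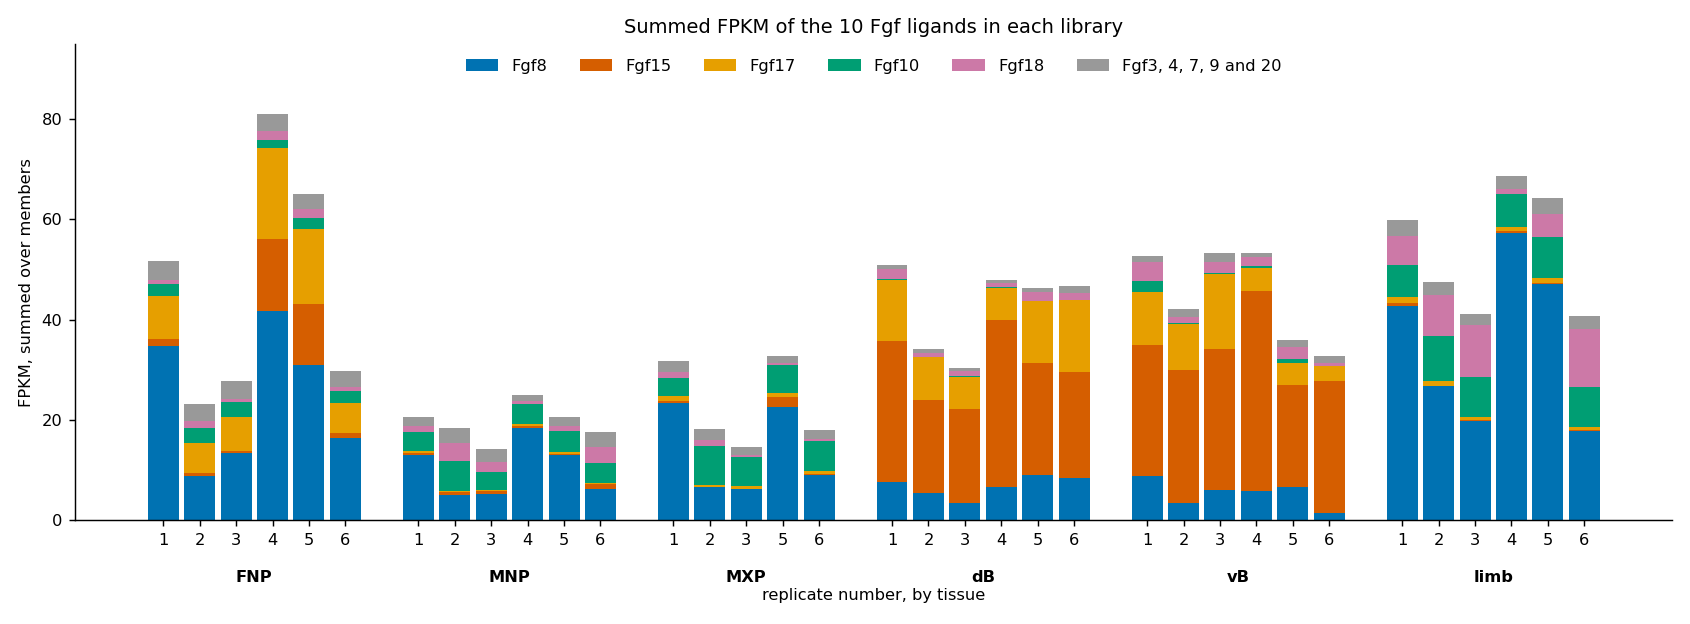
Summed FPKM of the 10 Fgf ligands (vertical axis) in each of the 35 libraries (horizontal axis, replicate numbers within tissue), stacked by member. Fgf8 (blue) makes up most of the bars in limb and FNP, Fgf15 (orange) leads in dB and vB, and FNP replicates 4 and 5 hold a far larger Fgf15 part than the other FNP bars.

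Tests were made with limma on log2(FPKM + 1), with adjustment over the 13934 genes tested in each contrast, and genes that changed at least 2-fold with an adjusted p below 0.05 were called. Differences are given on this log2 scale with their standard error (SE). The fits treated the libraries as independent, although libraries of the same replicate number were alike, as given at the end. For low genes the added 1 makes them understate the FPKM ratio. All 6 tested members were called between some pair of tissues, where 21.3% of all tested genes were. A gene could pass the filter through a single high tissue, so the count says little beyond that. Fgf8 averaged over 1 FPKM in all 6 tissues and Fgf18 in 5.

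Fgf8, the main ligand of the limb ridge, was highest in limb. There the lowest, median and highest libraries stood at 17.7, 34.7 and 57.4 FPKM (mean 35.2 ± 16.2, SD, n = 6). FNP followed at 8.83, 23.6 and 41.8 FPKM (mean 24.3 ± 13.3, n = 6). The 5 MXP libraries stood at 23.4, 6.54, 6.23, 22.6 and 9.08 FPKM. The limb and FNP ranges overlapped widely, while every limb library was above every library of dB (3.54 to 8.95 FPKM) and vB (1.49 to 8.74 FPKM). In MNP Fgf8 reached 5.07 to 18.5 FPKM with a median of 9.63. From limb downward the order of tissue means was FNP, MXP, MNP, dB and vB, and no 2 neighbours in it differed beyond their spread. The closest to doing so were FNP and MXP, with a difference of 0.82 and a 95% confidence interval of -0.02 to 1.66.

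Between categories Fgf8 was lower in neural than in facial tissue by a log2 difference of -1.09 (SE 0.26, adjusted p = 5.4e-04) and lower in facial tissue than in limb by -1.23 (SE 0.32, adjusted p = 0.0077). Neural tissue lay below limb by -2.32 (SE 0.34, adjusted p = 7.9e-07). Within the face, FNP was 0.98 above the mean of MNP and MXP (SE 0.35, adjusted p = 0.08), which was not called. It was called with the sequencing run as a block (1.02, adjusted p = 0.0084), and without FNP replicates 4 and 5 it was 0.61 (adjusted p = 0.53). The neural against facial difference fell under 2-fold without vB replicate 6, at -0.97, and without FNP replicates 4 and 5, also at -0.97. In the fit of replicates 1 to 3 alone it was -0.81 (adjusted p = 0.065). Facial tissue against limb was not called with replicates 1 to 3 or 4 to 6 alone (adjusted p = 0.072 and 0.35).

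Fgf8 was among the most variable genes within a tissue. Its SD of log2(FPKM + 1) around the tissue means was 0.72, against a median of 0.25 over all tested genes, and 97.3% of tested genes had a smaller one. Fgf15 was as variable (0.73, above 97.5% of genes), followed by Fgf18 (0.58) and Fgf17 (0.48). Fgf10 (0.31) was nearer the median and Fgf9, at 0.17, was below it. The added 1 narrows the spread of low levels such as those of Fgf9.

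**Figure D2:**
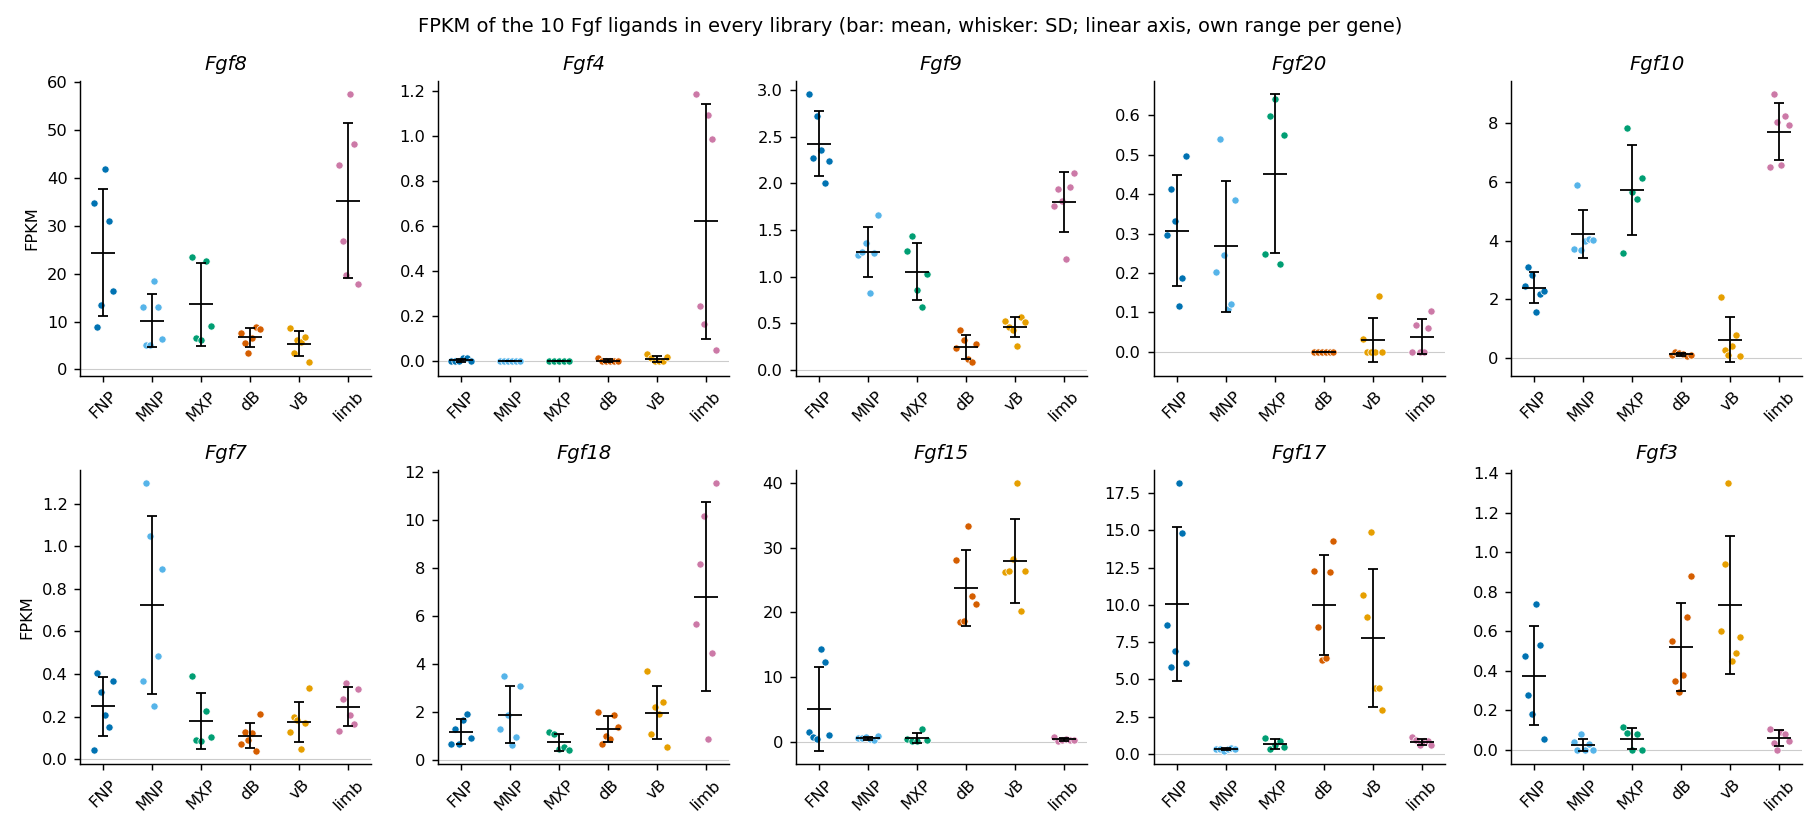
FPKM (vertical axis, linear, with its own range for each gene) of the 10 members in every library (points) of the 6 tissues (horizontal axis), with the mean and SD as bar and whisker. Fgf4 leaves the baseline only in limb, Fgf15 is high in dB, vB and 2 FNP libraries, and Fgf17 is high in FNP, dB and vB.

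Fgf4, which the posterior part of the ridge makes, was a limb gene in these libraries. It stood at 0.0509 to 1.18 FPKM in the 6 limb libraries, with a median of 0.616, and was listed at 0 in all 6 MNP and all 5 MXP libraries. In the 18 libraries of FNP, dB and vB it was listed at 0 in 12 and reached 0.0330 FPKM at most. Every limb library was therefore above every other library. Within limb, replicates 1, 4 and 5 stood at 1.18, 1.09 and 0.986 FPKM and replicates 2, 3 and 6 at 0.245, 0.164 and 0.0509 FPKM.

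Fgf4 missed the filter of 1 FPKM. In the fit without that filter, over 22333 genes, the differences from facial (adjusted p = 5.2e-06) and neural tissue (adjusted p = 2.8e-06) were under 2-fold on the log2(FPKM + 1) scale. A further fit added 0.1 FPKM instead of 1 and tested the 17718 genes with 0.1 FPKM or more on average in any tissue, and there Fgf4 was called against both (adjusted p = 1.3e-08 and 1.1e-08). The fitted size depends on the amount added, since most other libraries were at 0. Fgf4 passed the filter of 0.1 FPKM through limb alone, so these calls add little to the levels.

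Fgf9, made by the ridge and by other surface epithelia, was the steadiest member. It stood at 2.00, 2.31 and 2.96 FPKM (lowest, median and highest) in FNP, 1.19, 1.87 and 2.11 in limb, and 0.821, 1.26 and 1.67 in MNP. The 5 MXP libraries stood at 1.28, 1.43, 0.856, 0.674 and 1.03 FPKM. In the brain it did not exceed 0.424 FPKM in dB or 0.567 FPKM in vB, below every facial and limb library. Fgf9 was called lower in neural tissue than in limb (-1.05, SE 0.09, adjusted p = 4.9e-12). Against facial tissue the difference was -0.90 (SE 0.07, adjusted p = 1.4e-13), under 2-fold on this scale and called with 0.1 FPKM added (-1.90, SE 0.14, adjusted p = 2.3e-13). FNP was above the mean of MNP and MXP by 0.67 (SE 0.09, adjusted p = 1.1e-06), also under 2-fold.

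Fgf20, a close relative of Fgf9, was low and facial. It ranged from 0.117 to 0.498 FPKM in FNP and from 0.109 to 0.541 FPKM in MNP, and the MXP libraries stood at 0.249, 0.599, 0.642, 0.222 and 0.551 FPKM. All 6 dB libraries and 4 of 6 vB libraries were listed at 0, as were 3 of 6 limb libraries, and the highest of the rest was 0.141 FPKM in vB replicate 5. In the fit with 0.1 FPKM added Fgf20 was called lower in neural than in facial tissue (adjusted p = 1.7e-10) and higher in facial tissue than in limb (adjusted p = 3.5e-06). Fgf20 passed the filter of that fit through the facial tissues alone, so these calls add little to the levels. No difference among the 3 facial tissues passed the test, and the MXP against MNP difference was 0.20 on the log2(FPKM + 1) scale (adjusted p = 0.37).

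Fgf10, the mesenchymal partner of the ridge, followed the order limb, MXP, MNP, FNP, vB and dB. In limb its lowest, median and highest libraries stood at 6.51, 8.01 and 8.99 FPKM (mean 7.72 ± 0.982, SD, n = 6), and in MNP at 3.67, 4.01 and 5.90. The MXP libraries stood at 3.58, 7.84, 5.67, 5.43 and 6.13 FPKM, overlapping both neighbours in that order, and FNP ranged from 1.56 to 3.09 FPKM, below every MNP and MXP library. In dB Fgf10 did not exceed 0.191 FPKM.

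In vB the 6 replicates stood at 2.08, 0.280, 0.0891, 0.399, 0.783 and 0.0536 FPKM. The 3 highest, replicates 1, 5 and 4, were the libraries with mesenchyme means of 3.86, 4.73 and 3.82, and replicates 1 and 5 also had surface epithelium means of 1.75 and 1.81, against 0.26 to 0.48 in the other vB libraries. No mesenchyme gene of the list was at 0 in every vB library, and the part of these cells in the vB values was not tested.

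Fgf10 was called lower in neural than in facial tissue (-1.91, SE 0.12, adjusted p = 1.1e-15) and than in limb (-2.74, SE 0.15, adjusted p = 2.0e-16). Without vB replicates 1, 4 and 5 the difference from facial tissue was -2.11. Facial tissue lay below limb by -0.84 (SE 0.15, adjusted p = 6.6e-05), under 2-fold. Within the face FNP was below the mean of MNP and MXP by -0.80 (SE 0.16, adjusted p = 4.2e-04), under 2-fold. On the scale with 0.1 FPKM added this difference was -1.01 (SE 0.32, adjusted p = 0.037) and was called, where 5.24% of genes were. Without FNP replicates 4 and 5 it was -0.84 (adjusted p = 0.22).

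Fgf7, a mesenchymal ligand that binds the same epithelial receptor form as Fgf10, was low in all tissues and highest in MNP. Its 6 MNP libraries stood at 0.251 to 1.30 FPKM with a median of 0.690, and no library of another tissue exceeded 0.404 FPKM. Replicates 2, 3, 6 and 5, at 1.30, 1.05, 0.895 and 0.484 FPKM, lay above all of those, while replicates 1 and 4, at 0.370 and 0.251 FPKM, overlapped them. Without the filter MNP lay above MXP by 0.52 (SE 0.11, adjusted p = 0.005). In the fit with 0.1 FPKM added its adjusted p was 0.011 at a change above 2-fold, and Fgf7 was the single member called in that comparison, in which 1.57% of genes were called.

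Fgf18, of the same subfamily as Fgf8 and Fgf17 and made by mesenchyme as well as by brain organisers, was highest in limb. The limb replicates stood at 5.66, 8.19, 10.2, 0.873, 4.47 and 11.6 FPKM, so that replicate 4 lay within the range of the other tissues while the other 5 exceeded every other library. That library also had the lowest mean over the limb mesenchyme genes, 3.84 against 4.79 to 5.05. Elsewhere Fgf18 ranged from 0.422 FPKM in MXP to 3.73 FPKM in vB, and none of the 15 pairs of tissues had separate ranges. Facial tissue was below limb by -1.63 (SE 0.27, adjusted p = 2.7e-05) and neural tissue below limb by -1.40 (SE 0.28, adjusted p = 9.0e-05). With replicates 4 to 6 alone neither was called (adjusted p = 0.22 and 0.13). Neural and facial tissue differed by 0.22 (SE 0.21, adjusted p = 0.39).

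Fgf15, the member most tied to neural progenitors here and the mouse counterpart of human FGF19, was high in both brain tissues. It stood at 18.5, 21.9 and 33.4 FPKM (lowest, median and highest) in dB and at 20.2, 26.4 and 40.0 in vB. MNP and limb did not exceed 0.827 and 0.718 FPKM. The lowest neural library was thus above the highest library of any other tissue. Neural tissue was above facial tissue by 3.73 (SE 0.26, adjusted p = 4.6e-14) and above limb by 4.32 (SE 0.35, adjusted p = 2.0e-12).

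In FNP the replicates stood at 1.42, 0.680, 0.358, 14.3, 12.3 and 0.936 FPKM. Replicates 4 and 5 were far above the other 4, and were the FNP libraries with neural progenitor means of 4.50 and 4.12. The same held for the highest MXP library, replicate 5, at 2.00 FPKM with a neural progenitor mean of 2.52 (0.0488 to 0.368 FPKM and 1.36 to 1.63 in the other 4). It also held for limb replicate 1, at 0.718 FPKM with a mean of 1.92 (0.0705 to 0.349 FPKM and 0.52 to 0.76 in the other 5). No gene of the 7 in that list was at 0 in all libraries of any tissue, and the part of neural cells in these values was not tested.

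Fgf15 was called higher in FNP than in the mean of MNP and MXP (1.30, SE 0.35, adjusted p = 0.013). FNP was also above limb (1.46, adjusted p = 0.01). The first call ended without FNP replicate 4 (0.88, adjusted p = 0.082), without replicate 5 (0.92, adjusted p = 0.084) and without both (0.31, adjusted p = 0.56), and without both the difference from limb was 0.47 (adjusted p = 0.18).

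Fgf17, a ligand of the isthmus and the rostral forebrain, was shared between brain and FNP. In FNP it stood at 5.85, 7.76 and 18.2 FPKM, in dB at 6.28, 10.4 and 14.3 and in vB at 2.95, 6.81 and 14.9. No library of MNP, MXP or limb exceeded 1.12 FPKM, below every library of the first 3 tissues. FNP and dB had nearly the same mean (10.1 ± 5.17 and 9.99 ± 3.38 FPKM, n = 6 each), with a difference of -0.05 and a 95% confidence interval of -0.59 to 0.49. FNP was above the mean of MNP and MXP by 2.79 (SE 0.23, adjusted p = 9.1e-11). Its replicates 4 and 5, at 18.2 and 14.8 FPKM, were again the highest of FNP, but the other 4 stood at 5.85 to 8.63 FPKM, and without replicates 4 and 5 the difference was 2.40 (adjusted p = 7.6e-09). Neural tissue was above facial tissue by 1.69 (SE 0.17, adjusted p = 3.9e-10) and above limb by 2.32 (SE 0.23, adjusted p = 2.7e-10).

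Fgf3, which acts in the hindbrain, inner ear and hypothalamus, was low in all tissues and highest in the brain. It ranged from 0.292 to 0.878 FPKM in dB, from 0.450 to 1.35 FPKM in vB and from 0.0554 to 0.736 FPKM in FNP. MNP, MXP and limb did not exceed 0.0782, 0.113 and 0.104 FPKM, and 3 of 6, 2 of 5 and 1 of 6 of their libraries were listed at 0. Every neural library was above every library of MNP, MXP and limb. After adding 0.1 FPKM, neural tissue was above facial tissue by 1.80 (SE 0.21, adjusted p = 5.6e-09) and above limb by 2.13 (SE 0.28, adjusted p = 7.4e-08), and FNP above the mean of MNP and MXP by 1.63 (SE 0.28, adjusted p = 7.3e-05). The highest FNP libraries were again replicates 4 and 5, at 0.736 and 0.530 FPKM, and the other 4 stood at 0.0554 to 0.476 FPKM. Without replicates 4 and 5 the FNP difference was 1.22 (adjusted p = 0.0056).

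Fgf3, Fgf4 and Fgf15 are neighbours on the plus strand of chromosome 7 (mm10): Fgf3 from 144838612 to 144843348, Fgf4 from 144861386 to 144865243 and Fgf15 from 144896532 to 144900951. The 3 genes lie within 62340 bases, with 18037 bases between the first 2 and 31288 bases between the last 2, as the files bound them. The wider gene bounds of GENCODE vM21 leave 2930 bases between Fgf3 and Fgf4. Their levels followed different tissues. Fgf15 averaged 27.9 FPKM and Fgf3 0.733 FPKM in vB, where Fgf4, which lies between them, averaged 0.0109 FPKM. In limb the averages were 0.620 FPKM for Fgf4, 0.322 FPKM for Fgf15 and 0.0591 FPKM for Fgf3.

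Of the 10 members 6 have a promoter in the RefSeq table (GRCm38.p6), and Fgf8, Fgf15, Fgf17 and Fgf20 do not. The 250 bases before the starts of Fgf3 (chr7:144838362-144838611) and Fgf4 (chr7:144861136-144861385) are given because these neighbours were high in different tissues. They were searched on both strands for 4 short motifs that occur in many promoters. The first was the TATA box, with the letters TATAAA. The next was the GC box, a site of Sp factors written GGGCGG. The third was the CCAAT box, searched by the letters of its name. The last was the motif of the Tcf and Lef factors of Wnt signalling, CTTTGAT. Matches are in capitals and none of them overlap.
Fgf3: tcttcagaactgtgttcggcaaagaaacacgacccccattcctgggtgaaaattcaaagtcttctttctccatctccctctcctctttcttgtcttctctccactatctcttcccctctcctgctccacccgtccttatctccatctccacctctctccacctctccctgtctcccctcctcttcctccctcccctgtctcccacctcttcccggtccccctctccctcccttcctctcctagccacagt
Fgf4: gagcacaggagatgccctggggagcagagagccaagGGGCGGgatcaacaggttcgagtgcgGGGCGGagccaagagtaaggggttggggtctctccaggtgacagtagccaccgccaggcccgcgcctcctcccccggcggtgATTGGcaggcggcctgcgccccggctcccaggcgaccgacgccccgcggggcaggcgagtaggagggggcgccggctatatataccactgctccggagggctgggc
The Fgf4 window held 3 matches, 2 GC boxes on the gene's strand and 1 CCAAT box on the other, and had a GC content of 71.2%. The Fgf3 window held no match and had a GC content of 55.2%, against a median of 52.4% over all 32851 promoters. Of all promoters, 32.7% held a GC box, 33.9% a CCAAT box, 12.4% a TATA box and 3.21% the Tcf and Lef motif, so the Fgf4 matches are common ones.

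In neural against facial tissue 4 of the 10 members were called, Fgf15 and Fgf17 higher and Fgf8 and Fgf10 lower, and 4 more were under the filter (all tested genes: 11.3%). In facial tissue against limb 2 were called, Fgf8 and Fgf18, both lower in the face (2.62% of all genes). In neural tissue against limb all 6 tested members were called, Fgf15 and Fgf17 higher and Fgf8, Fgf9, Fgf10 and Fgf18 lower (12.4% of all genes). In FNP against the mean of MNP and MXP, Fgf15 and Fgf17 were called higher (2.31% of all genes). With 0.1 FPKM added all 10 members were tested and all 10 were called between some pair of tissues (31.9% of genes). There too a gene could pass the filter through a single high tissue or category, as Fgf4 and Fgf20 did, so these counts say little beyond that. In that fit 7 were called in neural against facial tissue (16.7%), 4 in facial tissue against limb (5.91%) and 8 in neural tissue against limb (18.7%). In FNP against the mean of MNP and MXP 5 were called (5.24%). Without FNP replicates 4 and 5 the last count was 3 (Fgf3, Fgf9 and Fgf17), and the share of all genes was not counted there.

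**Figure D3:**
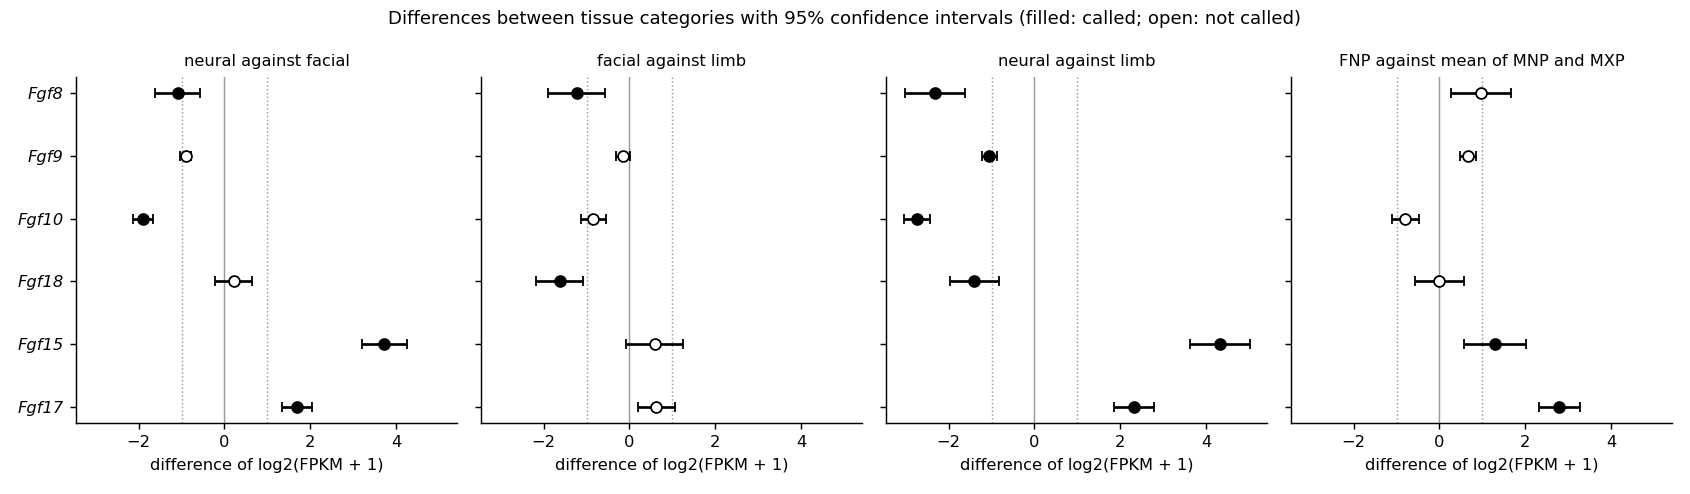
Differences of log2(FPKM + 1) (horizontal axis) with 95% confidence intervals for the 6 tested members in 4 comparisons, the first group minus the second. Filled points were called, open points were not, and dotted lines mark a 2-fold change. Fgf15 and Fgf17 lie to the right and Fgf8 and Fgf10 to the left of 0 in neural tissue against facial tissue and against limb.

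Pairs of tissues within a category separated few members. No member was called in dB against vB (1.39% of all genes), nor in MNP against MXP (1.03%). Of dB and vB, Fgf10 was 0.42 higher in vB (95% confidence interval 0.06 to 0.78, adjusted p = 0.2) and Fgf9 0.24 higher (0.03 to 0.44, adjusted p = 0.21). FNP was higher in Fgf17 and Fgf15 than MNP (2.68%) and in Fgf17 than MXP (2.28%). With the sequencing run as a block, Fgf8 was also called in FNP against MNP (1.25, adjusted p = 0.0054) and Fgf15 in FNP against MXP (1.29, adjusted p = 0.046). The share of all genes called with that block was not counted. Against dB (9.62%) and against vB (12.1%), FNP was higher in Fgf8, Fgf9 and Fgf10 and lower in Fgf15. Against limb (4.21%), FNP was higher in Fgf15 and Fgf17 and lower in Fgf10 and Fgf18, whereas MNP (2.71%) and MXP (3.34%) were each lower in Fgf8 and Fgf18.

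Between face and brain, MNP was higher in Fgf10 and lower in Fgf15 and Fgf17 than dB (11.3%) and than vB (13.4%). MXP differed from dB in the same 3 members (11.0%) and from vB also in Fgf8, which was higher in MXP (13.6%). Limb differed from dB in all 6 tested members (11.7%) and from vB in 5, all but Fgf9 (13.6%). The higher Fgf8 of MXP against vB rested on single libraries, since its adjusted p of 0.031 became 0.12 without MXP replicate 1, 0.11 without MXP replicate 5, 0.06 without vB replicate 2 and 0.1 without vB replicate 6. Likewise the lower Fgf8 of MXP against limb (adjusted p = 0.024) lost its call without any of 6 libraries, MXP replicates 2, 3 and 6 and limb replicates 1, 4 and 5. The higher Fgf15 of FNP against MNP (adjusted p = 0.045) was lost without any of 21 single libraries, and without FNP replicates 4 and 5 its size was 0.27.

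The 4 forms of Fgf8 were present side by side in every tissue. In limb the base form held 40.0% of the Fgf8 FPKM (32.4% to 49.9% over 6 libraries), the form with the 33-base segment between 23.8% and 42.1%, the form with both the segment and the cassette exon 16.2% (12.2% to 22.4%) and the form with the 192-base extension 10.8% (6.52% to 13.8%). In FNP the form with the 33-base segment held the largest mean share, 36.1% (21.2% to 47.8%), ahead of the base form at 28.9% (20.9% to 37.3%), and the extended form held 19.1% (15.7% to 28.0%). The extended form was thus above its limb range in every FNP library. Added up, the forms with the 33-base segment made up 49.2% ± 5.75 (SD, n = 6) in limb, 52.0% ± 5.33 (n = 6) in FNP, 51.1% ± 13.3 (n = 5) in MXP, 46.5% ± 14.9 (n = 6) in MNP, 54.1% ± 20.8 (n = 6) in dB and 36.8% ± 25.9 (n = 6) in vB.

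In the brain, where Fgf8 was lowest, shares of single forms ran from near 0 to 89.5% between replicates of one tissue. The files give no confidence bounds for these shares, which Cufflinks divides between overlapping transcripts, and they were not tested. Of the other members with several transcripts, Fgf17 has 2 of nearly equal length (1654 and 1687 bases), and in FNP the longer held 48.0% of the Fgf17 FPKM (41.6% to 56.2%), against 41.2% in dB (32.9% to 49.9%).

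**Figure D4:**
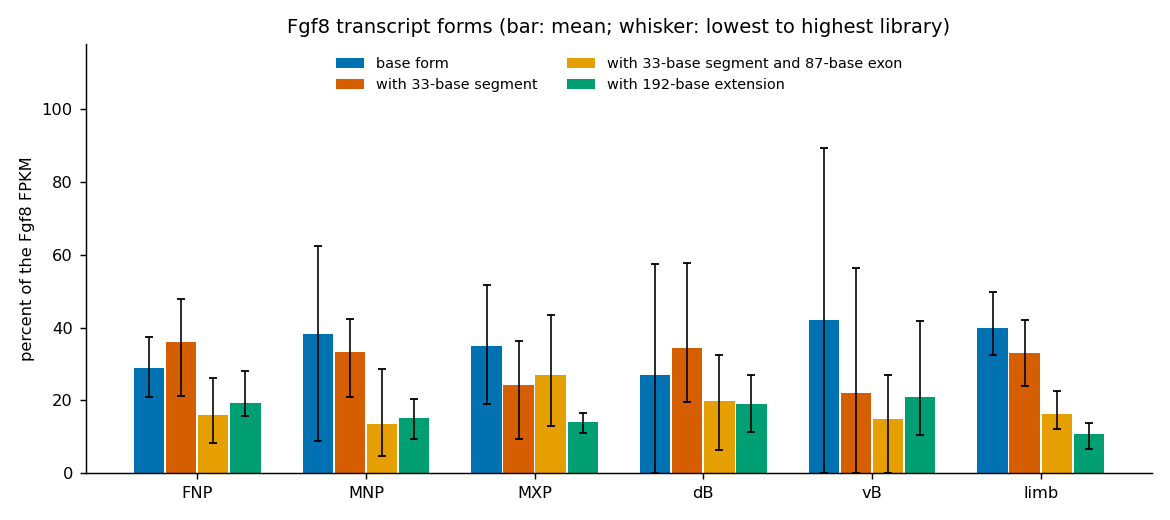
Mean share of the Fgf8 FPKM (percent, vertical axis) held by each of the 4 Fgf8 transcript forms in the 6 tissues, with whiskers from the lowest to the highest library. The shares spread little in limb and FNP and run to nearly 0 or to 89.5% in vB, where the gene was lowest.

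The spread within tissues followed the replicate numbers for several members. In FNP the 3 highest Fgf8 libraries were replicates 4, 1 and 5 (41.8, 34.7 and 30.9 FPKM), in MNP replicates 4, 5 and 1 (18.5, 13.1 and 12.9 FPKM) and in limb replicates 4, 5 and 1 (57.4, 47.1 and 42.6 FPKM). In MXP, which has no replicate 4, replicates 1 and 5 were the highest. So Fgf8 had replicates 1, 4 and 5 on top in 4 of 6 tissues, but not in dB and vB. Fgf15 had them on top in FNP, MXP, dB and limb. Fgf20 had them at the bottom in all 3 facial tissues, and Fgf7 at the bottom in FNP, MNP, vB and limb but on top in MXP. Fgf18 had them at the bottom in MNP and limb, where Fgf8 had them on top.

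Of genes looked up after these values were seen, Lin28a, an RNA-binding protein, had replicates 1, 4 and 5 on top in 6 of 6 tissues. Its paralogue Lin28b had them on top in 4 of 6, but not in vB and limb. In limb Lin28a averaged 5.46 ± 3.99 FPKM (SD, n = 6). Dusp6, a phosphatase that Fgf signalling induces, had them on top in FNP, dB, vB and limb. Replicate 6 of every tissue shares its sequencing run with replicate 5. The share of all genes with replicates 1, 4 and 5 on top was not counted, and what sets these replicates apart was not tested.

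**Figure D5:**
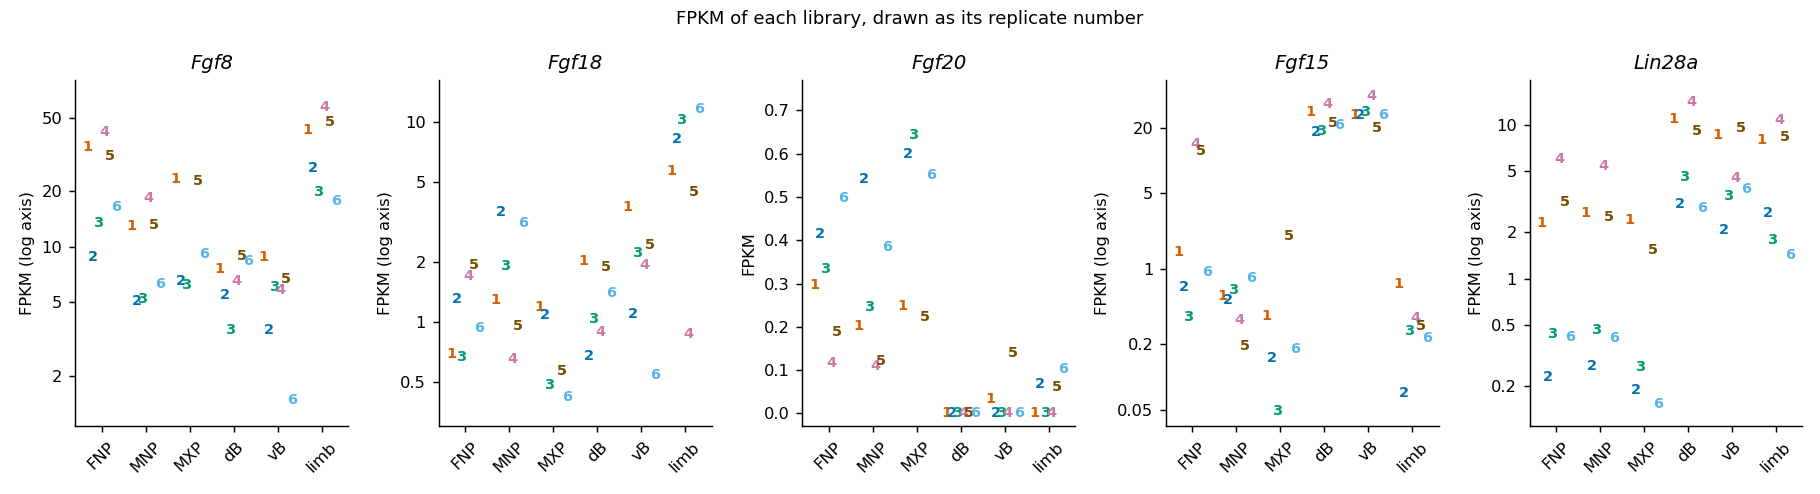
FPKM of each library in the 6 tissues for Fgf8, Fgf18, Fgf20, Fgf15 and Lin28a, drawn as its replicate number (vertical axes logarithmic except for Fgf20, which is at 0 in many libraries). For Fgf8 the numbers 1, 4 and 5 lie above 2, 3 and 6 in FNP, MNP and limb, and for Fgf20 they lie below in the facial tissues.

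The receptors and the pathway's own targets were set beside the ligands from lists fixed for this purpose. Of 7 receptors and co-receptors 5 were tested. Fgfr3 alone was called, with a higher level in the brain than in the face (3.15, SE 0.20, adjusted p = 5.1e-15) and than in limb (2.70, SE 0.27, adjusted p = 2.9e-10). It averaged 36.6 ± 10.5 FPKM in dB and 2.30 ± 0.599 FPKM in MXP. Fgfr1 was present throughout, from 26.2 ± 10.5 FPKM in vB to 52.0 ± 13.9 FPKM in limb, and so was Fgfr2, at 33.4 ± 9.02 FPKM in MXP, 15.8 ± 3.39 FPKM in vB and slightly less than that in limb. Fgfr4 did not exceed a mean of 1.21 FPKM. Kl and Klb, the co-receptors of endocrine Fgf ligands, did not exceed means of 0.106 and 0.0512 FPKM, in tissues where Fgf15 reached 40.0 FPKM.

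Of 16 feedback and target genes 14 were tested. In neural against facial tissue 6 were lower and 1 higher, and in neural tissue against limb again 6 lower and 1 higher. The median log2 difference of the list was -0.74 and -0.56, beside -0.02 and -0.01 over all tested genes. In facial tissue against limb 0 were lower and 1, Flrt2, was higher (1.72, SE 0.22, adjusted p = 4.4e-07), with a list median of -0.23. Etv4, a transcription factor induced by Fgf signals, fell by 1.82 in neural against facial tissue (SE 0.15, adjusted p = 4.0e-12). It averaged 26.1 ± 4.48 FPKM in limb, 22.2 ± 4.51 FPKM in FNP and 4.18 ± 1.16 FPKM in dB. Spry4, a feedback inhibitor, fell by 2.52 in neural tissue against limb (SE 0.13, adjusted p = 1.9e-17). The member that rose was Fgfbp3, a carrier that frees Fgf ligands from the matrix (2.72 above facial tissue, SE 0.10, adjusted p = 3.6e-21), at 23.1 ± 3.38 FPKM in dB and 1.74 ± 0.198 FPKM in limb.

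Of the 8 other secreted Fgf ligands only Fgf2 and Fgf5 were tested and neither was called in the 3 comparisons of categories. Fgf5 was near 1 FPKM in MNP alone (1.02 ± 0.174 FPKM, with means of 0.331 FPKM or less elsewhere), and Fgf2 averaged 1.33 ± 0.879 FPKM in FNP and 1.61 ± 1.26 FPKM in MXP. The 4 intracellular homologous factors, which are not secreted and act on ion channels of neurons, were all tested. Fgf13 (adjusted p = 1.0e-09) and Fgf14 (1.39, adjusted p = 6.3e-13) were called higher in the brain than in the face, whereas Fgf11, Fgf13 and Fgf14 were all called higher in the brain than in limb. Fgf12 was called in neither comparison (0.51 and 0.84).

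Genes of the signalling centres were counted in the same way. Of 14 genes of the limb ridge and limb ectoderm all were tested. In facial tissue against limb 3 were higher and 3 lower, with a list median of -0.32 beside 0.02 over all genes, and the largest changes were those of Dlx6 (2.37 higher in the face) and Dlx5 (1.86 higher), homeobox genes of jaw and limb. Of 11 limb mesenchyme genes 8 were lower in facial tissue and 0 higher, led by Hoxd13 and Hoxa13. Of 14 olfactory placode genes 6 were higher and 1 lower in facial tissue than in limb, and Eya1, called higher by 2.31, averaged 30.7 ± 4.44 FPKM in FNP. Of 12 oral ectoderm genes 2 were higher and 0 lower in facial tissue than in limb, Sox2 (2.89) and Foxe1 (1.93). Foxe1 averaged 6.04 ± 3.42 FPKM in MNP.

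Of 10 isthmic genes 7 were tested, and 4 were higher and 0 lower in neural than in facial tissue, Otx2 (4.34) and Cnpy1 (2.43) with the largest changes. Cnpy1 stood at 7.98 ± 7.79 FPKM in dB and 11.1 ± 14.5 FPKM in vB, with an SD close to the mean in dB and above it in vB. Of 10 genes of the rostral forebrain midline and telencephalon, 8 were higher and 0 lower in neural than in facial tissue, with Zic1 (5.13) and Lhx2 (4.48) largest. Of 8 hypothalamic genes 5 were higher and 2, Tbx2 and Tbx3, lower. All 15 surface epithelium genes were lower in neural tissue than in facial tissue and than in limb, and 8 of 10 mesenchyme genes were lower in neural than in facial tissue and 7 of 10 lower than in limb. All 7 neural progenitor genes and all 6 neuron genes were higher in neural tissue against either. Of 6 roof plate genes 4 were higher and 1 lower in neural than in facial tissue, and of 4 muscle genes 3 were lower in facial tissue than in limb. None of the 8 endothelial, 5 tested erythroid and 7 macrophage genes was called between categories. Fgf8, Fgf9 and Fgf10 moved in the direction of the epithelium and mesenchyme lists and Fgf15 and Fgf17 in that of the progenitor list, and the part of cell make-up in these differences was not tested.

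For each tested member the 3 genes most like it over the 35 libraries were found by Pearson's r of log2(FPKM + 1) among all tested genes, as a description. Fgf8 was closest to Dusp6 (r = 0.916), then to Ier2 (0.891), an immediate early gene, and Mogat2 (0.889). Fgf9 was closest to Lad1 (0.934), an epithelial anchoring protein, Sertad4 (0.917) and Macc1 (0.893). Fgf10 was closest to Capn6 (0.945), Osr2 (0.940), a transcription factor of palate and jaw mesenchyme, and Arhgap24 (0.933). Fgf15 was closest to Hes5 (0.981), a Notch target of neural progenitors, followed by Btbd17 (0.969) and Ckb (0.968). Fgf17 was closest to Fezf1 (0.911), a forebrain and olfactory transcription factor, Pawr (0.904) and Six3os1 (0.900). Fgf18 had the weakest matches, Rrad (0.825), AK033508 (0.816) and Atp6v1g3 (0.812). These libraries share 6 tissues, so a high r mainly says that the tissue levels run in parallel: Hes5 averaged 117 FPKM in dB, 108 FPKM in vB and 10.6 FPKM in FNP.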

How the data were processed

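Polyadenylated RNA from 35 pooled tissue samples was sequenced by the study's authors, who deposited a Cufflinks table for every library (mm10) that gives, for each transcript, the FPKM, the status of the estimate and the read coverage. The coverage deposited by the authors served only to describe depth. The submitters' processing notes name Bowtie2 and DESeq2, and the aligner behind the Cufflinks estimates is not given in the sources used here. A table lists 59120 transcripts, and 65 without a readable FPKM were left out. All 560 estimates of members had the status OK.

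FPKM was summed per gene symbol. Because no counts were at hand, log2(FPKM + 1) was fitted with limma 3.58.1 (R 4.3.3, trend and robust options), using 1 mean for each tissue and the 13934 genes that averaged 1 FPKM or more in any tissue. Each of 19 contrasts was Benjamini-Hochberg adjusted, and calls needed a fold of at least 2 with an adjusted p below 0.05. The fit was tried on simulated data with independent noise and with changes in limb alone. That trial held no likeness by replicate number or by sequencing run. Confidence intervals are at 95%. The members and the other lists were chosen with earlier results of these data known. All 10 members were named, and of each other list at most the 2 called genes with the largest change per category comparison, further genes being given as levels. Lin28a, Lin28b and Dusp6 beside the replicate pattern were chosen after their values were seen.

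Alternatives were another pseudocount (0.1) with or without a lower filter (0.1 FPKM), no filter, quantile normalization, rescaling to transcripts of at least 200 bases, a block for replicate number or for sequencing run, fits of replicates 1 to 3 and of 4 to 6 alone, the removal of each library in turn, vB replicates 1, 4 and 5 left out, adjustment over 15 pairs together and genes with failed estimates left out. The fits without FNP replicates 4 and 5, at either pseudocount, were added after the data were seen. The labels state 6 independent biological replicates for each tissue, of which MXP has 5 here. Sums and figures were made in Python 3.11.15 (pandas 2.3.3, matplotlib 3.10.9).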

Additional observations from a re-analysis of the deposited data

Results flagged for a closer look

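Among 57 sets of values (1 member in 1 tissue) 5 held a library far from the others. The rule has a nominal chance rate of about 1 set in 20, which was not checked on these values. Fgf10 in vB replicate 1 stood at 2.08 FPKM, against 0.0536 to 0.783 FPKM in the other 5 vB libraries. Fgf10 in MNP replicate 2 stood at 5.90 FPKM, against 3.67 to 4.06 FPKM in the other 5. Fgf15 in MXP replicate 5 stood at 2.00 FPKM, against 0.0488 to 0.368 FPKM in the other 4. Fgf20 in vB replicate 5 stood at 0.141 FPKM, against 0 to 0.0333 FPKM in the others. Fgf4 in dB replicate 1 stood at 0.0171 FPKM, with the other 5 libraries listed at 0, where any value above 0 stands apart.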

How the results depend on the processing

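The comparisons below were refitted under 50 alternatives, 35 of which leave out a single library. Of the 57 member contrasts called, 39 kept their call under all 50, and no named category difference changed sign. Leaving out 1 library in turn kept 6 members called between any pair of tissues, 3 to 4 in neural against facial tissue, 2 in facial tissue against limb, 6 in neural tissue against limb, 1 to 3 in FNP against the mean of MNP and MXP, and 0 in MNP against MXP and in dB against vB. With 0.1 FPKM added and a tissue mean of 0.1 FPKM the counts were 10, 7 and 4 for the first 3 comparisons, 5 for FNP against the mean of MNP and MXP and 1 for MNP against MXP. More members were tested in that fit. Without FNP replicates 4 and 5 it gave 10, 7, 4 and 1 again, and 3 for FNP against the mean of MNP and MXP. With 0.1 FPKM added to the genes of the original filter, FNP against the mean of MNP and MXP gave 4. With replicates 1 to 3 alone, facial tissue against limb gave 1 and FNP against the mean of MNP and MXP gave 1. With replicates 4 to 6 alone these gave 0 and 1. Both fits hold fewer libraries. Without FNP replicates 4 and 5, with or without vB replicates 1, 4 and 5, the latter gave 1. Levels under about 1 FPKM are limited by depth, which the files do not give as counts.

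With the replicate number as a block 6 members were called between any pair of tissues, 4 in neural against facial tissue, 2 in facial tissue against limb, 6 in neural tissue against limb and 2 in FNP against the mean of MNP and MXP, the same counts as without it. The replicate block raised FNP against MNP from 2 members to 3, with Fgf8 (adjusted p = 0.00062), and FNP against MXP from 1 to 2, with Fgf15 (adjusted p = 0.041), and changed no other pair's count. The sequencing run as a block gave the same 3 and 2, and 3 in FNP against the mean of MNP and MXP. The share of all genes called with either block was not counted, so these rises cannot be set against a general rise in calls. Of 85 pairs of libraries of the same number, 78 had deviations from the tissue means with a correlation over 0.1 (mean 0.320, lowest 0.00780, against -0.0627 for different numbers), and 32 of 35 libraries were on average closest to their own number. Since not every pair was over 0.1, the numbers were not taken to pair the samples, and the main fits treated the libraries as independent. That choice does not show the libraries to be independent, since most pairs of the same number were alike. The p-values of those fits leave out the likeness of libraries of the same number. For Fgf8 in facial tissue against limb the adjusted p was 0.0077 in the main fit. With the replicate block it was 2e-05. For Fgf8 in FNP against MNP the adjusted p was 0.076 in the main fit and 0.00062 with the replicate block.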
